A study of Mus musculus with 2 samples.

Results

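The nuclear-encoded genes of oxidative phosphorylation were examined in MC3T3-E1 cells cultured with formaldehyde. They were taken by symbol: every gene whose name starts with Ndufa, Ndufb, Ndufc, Ndufs, Ndufv, Uqcr, Cox4i, Cox5, Cox6, Cox7, Cox8 or Atp5, plus Sdha, Sdhb, Sdhc, Sdhd and Cyc1. This gave 93 of the 17215 genes measured. Of these, 85 were treated as subunits of the 5 complexes (36 of complex I, 4 of complex II, 9 of complex III, 19 of complex IV and 17 of complex V), with tissue-specific and related forms counted in, and 8 were Ndufaf genes, which encode assembly factors of complex I. Ndufa4 and Ndufa4l2 were counted with complex IV, because NDUFA4 is now known as a complex IV subunit. The mitochondrially encoded subunits were not analysed here.

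MC3T3-E1 is a clonal mouse pre-osteoblast line from newborn calvaria, so every culture compared descends from 1 line. Cells were grown with formaldehyde at 100 µM (group FA_100) or at 300 µM (group FA_300), and RNA was sequenced from 1 library per dose. The length of exposure is not stated in the labels, and untreated cells were not analysed here. With 1 library per dose there is no replicate and no test, so each difference below is one between 2 libraries and not shown to be one between doses.

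Oxidative phosphorylation takes place in the inner mitochondrial membrane. Complexes I and II pass electrons from NADH and succinate to ubiquinone, complex III passes them to cytochrome c and complex IV to oxygen, while complexes I, III and IV pump protons whose return drives ATP synthesis by complex V. Most subunits are encoded in the nucleus, where NRF1, GABPA (also called NRF2, an ETS factor), YY1 and the ERR receptors are known regulators of their genes, and several complexes need dedicated assembly factors. Osteoblasts use both glycolysis and respiration, and mitochondrial activity is known to increase as they differentiate.

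Levels are in FPKM, read fragments per kilobase of transcript relative to library size, as the authors deposited them. The ratio between doses is log2((FPKM at 300 µM + 1)/(FPKM at 100 µM + 1)), which understates the change of low genes. A gene was compared if its 2 values averaged 1 FPKM or more, which left 10123 genes with a median ratio of -0.30. Summed over all genes, FPKM came to 532944 in the 100 µM library and 691521 in the 300 µM library, so the libraries are not on one total. The spacing of the lowest values put the depth at about 18500000 and 19000000 fragments, an estimate under which 59.2% of 142 and 64.0% of 111 low values lay within 0.12 of a whole read, against at most 39.4% and 39.6% for other spacings. The osteoblast markers Col1a1 (2065 and 1714 FPKM), Sparc (1596 and 1915 FPKM) and Spp1 (253 and 313 FPKM) were high in both libraries, Sp7 was at 7.21 and 9.47 FPKM, and Runx2 was at 7.99 and 3.60 FPKM. Other osteoblast markers were low, with Alpl at 0.98 and 1.06 FPKM and Bglap listed at 0 and at 0.49 FPKM. Of the blood and macrophage markers Ptprc did not exceed 0.05 FPKM, and Lyz2 was at 13.2 and 26.5 FPKM.

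The promoters of several subunit genes are shown first, because their letters are referred to beside the regulators below. Windows from 250 bases before to 50 bases after a gene's start came from RefSeq on build GRCm38.p6, 1 per gene (the most upstream), and were found for 65 of the 78 subunit genes compared. The first set holds the last 150 bases before the start of 4 genes whose FPKM was at least 2-fold higher at 300 µM. Capitals mark the CCAAT box, CCAAT, on either strand.

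Ndufs4 (chr13:114388095-114388244, minus strand): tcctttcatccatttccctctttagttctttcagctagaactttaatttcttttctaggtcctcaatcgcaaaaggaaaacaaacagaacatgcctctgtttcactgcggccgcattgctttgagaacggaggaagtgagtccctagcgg
Ndufs7 (chr10:80249299-80249448, plus strand): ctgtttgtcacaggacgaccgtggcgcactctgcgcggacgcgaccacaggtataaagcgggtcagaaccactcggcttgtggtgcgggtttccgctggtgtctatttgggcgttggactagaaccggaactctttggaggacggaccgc
Ndufs8 (chr19:3912775-3912924, minus strand): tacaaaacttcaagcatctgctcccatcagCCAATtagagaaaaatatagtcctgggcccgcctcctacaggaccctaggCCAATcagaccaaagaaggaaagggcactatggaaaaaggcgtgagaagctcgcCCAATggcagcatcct
Uqcr10 (chr11:4704345-4704494, minus strand): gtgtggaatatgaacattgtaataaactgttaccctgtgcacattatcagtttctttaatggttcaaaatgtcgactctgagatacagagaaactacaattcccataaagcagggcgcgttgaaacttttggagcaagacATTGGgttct

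The second set holds the same stretch of 3 genes with the NRF1 letters GCATGCGC. In each of the 3, capitals mark GCGCATGCGC, in which a match on each strand overlaps the other. These are genes of complex V (Atp5g2 and Atp5k) and complex I (Ndufa11).

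Atp5g2 (chr15:102671048-102671197, minus strand): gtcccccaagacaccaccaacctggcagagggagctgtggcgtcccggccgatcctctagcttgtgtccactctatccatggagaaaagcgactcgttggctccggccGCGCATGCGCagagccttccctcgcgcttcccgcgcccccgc
Atp5k (chr5:108434400-108434549, minus strand): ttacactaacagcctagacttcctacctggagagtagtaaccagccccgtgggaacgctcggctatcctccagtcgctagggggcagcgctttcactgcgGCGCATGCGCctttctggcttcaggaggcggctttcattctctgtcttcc
Ndufa11 (chr17:56717612-56717761, plus strand): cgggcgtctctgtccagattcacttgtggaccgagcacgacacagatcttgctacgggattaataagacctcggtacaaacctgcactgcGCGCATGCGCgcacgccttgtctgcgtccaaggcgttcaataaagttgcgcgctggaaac

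The third set holds up to 24 bases around the YY1 letters AAGATGGC, in capitals, in 8 of the 9 subunit genes that hold them. The 8 matches printed lay within the first 50 bases after the start, read in the direction of the gene. The gene left out, Atp5pb of complex V, had its match across the RefSeq start on the other strand. Of the 8 genes printed, 7 belong to complex I, which has 32 of the 65 windows.

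Ndufa3 (chr7:3617387-3617410, plus strand): ccaagaacAAGATGGCcgggagta
Ndufa9 (chr6:126849100-126849123, minus strand): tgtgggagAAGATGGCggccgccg
Ndufb8 (chr19:44555393-44555412, minus strand): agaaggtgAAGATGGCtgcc
Ndufc1 (chr3:51408918-51408941, minus strand): tgcggaacAAGATGGCgccgtccg
Ndufs4 (chr13:114388045-114388067, minus strand): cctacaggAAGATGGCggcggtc
Ndufs6 (chr13:73328434-73328457, minus strand): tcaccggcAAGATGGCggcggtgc
Ndufs7 (chr10:80249465-80249488, plus strand): ccgaggccAAGATGGCggcgctgg
Atp5j2 (chr5:145191503-145191526, minus strand): aggacttcAAGATGGCgtcactcg

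Subunit genes were nearly all higher in the 300 µM library. Of the 85, 78 could be compared, and the 7 below the filter were Cox4i2, Cox6a2, Cox6b2, Cox7a1, Cox7b2, Cox8b and Ndufa4l2. Every one of the 78 stood at 16.9 FPKM or more at 100 µM and at 23.2 FPKM or more at 300 µM, so none entered through 1 dose. On the deposited scale the ratio was above 0 in 77 of 78, against 40.4% of all genes compared, and the exception was Uqcrfs1. It was at least 2-fold higher in 6 of 78 (7.69%), where 6.09% of all genes reached that size, and at least 2-fold lower in 0 of 78, where 29.8% of all genes did. On the deposited scale the share of members past 2-fold higher was near the background, but the comparison turned on the scaling and the threshold. With each ratio centred on the median gene, 39 of 78 subunits (50%) and 14.5% of all genes were past 2-fold, and with an unweighted TMM factor 54 of 78 (69.2%) and 17.1%. With both libraries scaled to equal summed FPKM it was 0 of 78 and 2.16%. On the deposited scale 55 of 78 (70.5%) and 18.8% of all genes were past 1.5-fold, and 0 of 78 and 1.22% past 3-fold. Their median ratio was 0.70, the quartiles were 0.56 and 0.80, and those of all genes were -1.18 and 0.40. Their summed level was 1.61 times higher, and their share of all FPKM went from 2.49% to 3.08%. Among the 500 most abundant genes 30 subunit genes were found at 100 µM and 42 at 300 µM. In a bulk library, fewer cells of a type and less RNA per cell cannot be told apart, and FPKM gives shares of a library rather than amounts per cell.

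**Figure D1:**
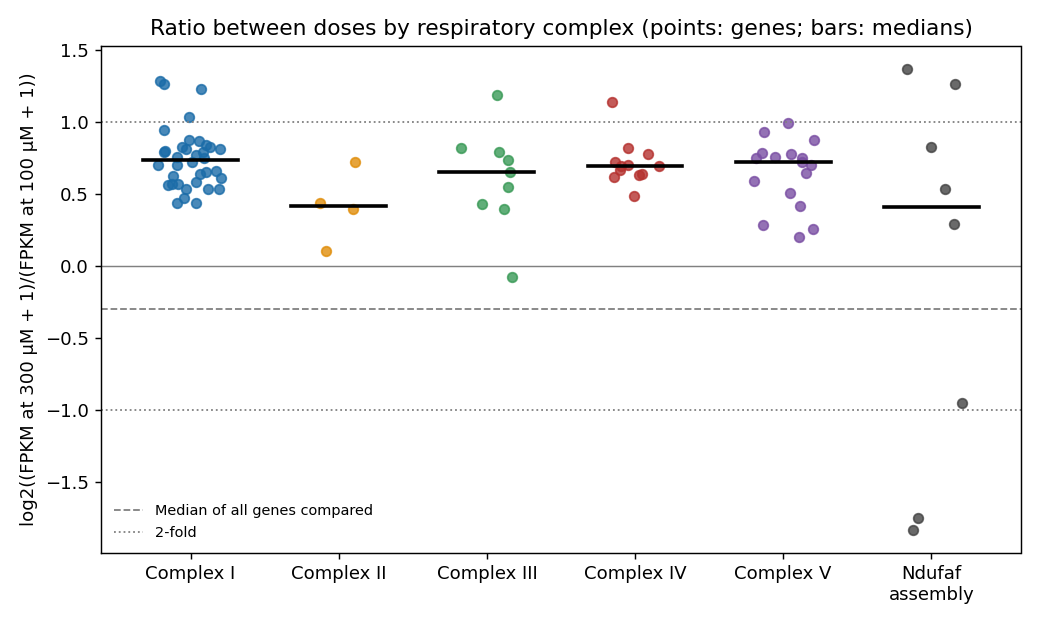
Ratio between doses, log2((FPKM at 300 µM + 1)/(FPKM at 100 µM + 1)), of each of the 78 subunit genes and 8 Ndufaf genes (points), grouped by complex on the horizontal axis, with horizontal position within a group free of meaning, the median of each group (bars), the median of all genes compared at -0.30 (dashed) and 2-fold (dotted). Subunit medians lie between 0.41 (complex II) and 0.73 (complex I) with 1 point below 0, while the Ndufaf genes run from -1.83 to 1.37.

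Short transcripts as a class were higher in the 300 µM library, and most subunit transcripts are short. The median length of the subunits' representative transcripts (1 per gene, from GENCODE release M21) was 787 bases, against 2929 bases for all genes compared, and 62.8% of subunits but 6.26% of all genes were under 1000 bases. Across the 10093 genes compared with a length, the Spearman correlation of ratio and length was -0.41, and over the 78 subunits it was -0.38; genes of a library are not independent replicates. Below 750 bases the 36 subunits had a median ratio of 0.75 and the 246 other genes 0.76, or 0.84 for the 130 of these with a mean of at least 50 FPKM. From 1500 to 2500 bases the 13 subunits had a median of 0.55 and the 2396 other genes 0.00, or 0.21 for the 487 with at least 50 FPKM. From 2500 to 4000 bases the 4 subunits had a median of 0.41 against -0.47 for 2996 others, or -0.02 for the 321 with at least 50 FPKM. By representative length, the shortest subunits thus did not stand above other short genes, while the longer ones stood above other genes of their length. This rests on the length used. The 4 subunits from 2500 to 4000 bases, Ndufab1, Sdhc, Ndufs1 and Sdha, have median coding lengths of 984, 815, 651 and 1811 bases.

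With a smooth length trend taken out of all genes and their median kept at -0.30, the median of the subunits was -0.19, and 51 of 78 stood above the median of all genes. In that version 1 subunit gene, Atp5g1, was at least 2-fold higher, where 5.61% of all genes were, and 0 were at least 2-fold lower, where 26.1% of all genes were. The value for Atp5g1 rests on a representative transcript of 4715 bases, whereas the median of its coding transcripts is 2676 bases. When every gene was given the median length of its coding transcripts instead, a version chosen after the data were seen, the median of the subunits was 0.18, 77 of 78 stood above the median of all genes, and 0 reached 2-fold higher, where 5.35% of all genes did. With GC content removed together with the representative length, 1 of 78 was past 2-fold higher, where 5.56% of all genes were. The direction of the subunits' median against 0 therefore turned with the length used. What part length has in the higher subunit values was not tested beyond these versions.

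**Figure D2:**
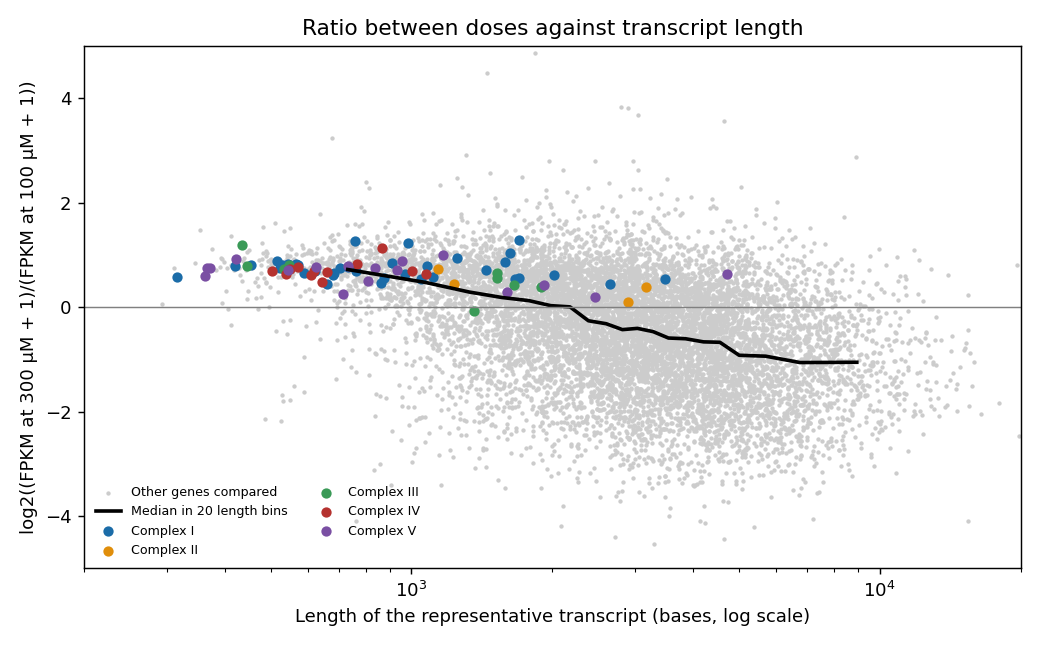
Ratio between doses (vertical axis, log2) against the length of the representative transcript in bases (horizontal axis, log scale) for the 78 subunit genes, coloured by complex, and for all other genes compared (grey), with the median in 20 length bins (line) and 9 genes outside the axes. The line falls with length, the short subunit genes lie along it near 0.75, and the longer subunit genes lie above it.

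Complex I, the NADH dehydrogenase, had a median ratio of 0.73 over 36 genes, which was not the highest of the 5 complexes once length was removed (-0.21, or 0.21 with the median coding length), and all 36 were above 0 with a lowest value of 0.44. Their median level was 85.9 FPKM at the lower dose and 143 FPKM at the higher, and their share of all FPKM went from 0.644% to 0.825%. Of the 36, 4 (11.1%) were at least 2-fold higher, where 6.09% of all genes were, and 3 of them are described. Ndufs4, an accessory subunit of the matrix arm, went from 17.1 to 42.9 FPKM (ratio 1.28). Ndufs7, which carries the last iron-sulfur cluster before ubiquinone, went from 53.2 to 129 FPKM (1.26), and Ndufs8, another iron-sulfur subunit, from 60.9 to 144 FPKM (1.23). All 3 belong to the matrix arm.

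A further 4 of the 7 nuclear core subunits, the conserved set that carries out catalysis, were at ratios from 0.44 to 0.57. The flavoprotein Ndufv1, where NADH is oxidised, was at 139 and 202 FPKM (0.53), and its partner Ndufv2 was at 63.6 and 94.5 FPKM (0.57). Ndufs1, the large iron-sulfur subunit, was the lowest of the complex in level and in ratio, at 16.9 and 23.2 FPKM (0.44), and Ndufs3 stood at 57.9 and 84.3 FPKM (0.54). The 7 core genes had a median ratio of 0.57 and the 29 accessory genes 0.75, of which only Ndufs4 was at least 2-fold higher. With the length trend removed the core genes had a median of 0.33, the whole complex -0.21, and 7 of 7 core genes stood above the median of all genes. They did so with the median coding length too, at a median of 0.28.

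The 16 matrix-arm genes and the 19 membrane-arm genes had close medians, 0.76 and 0.75. On the deposited scale the 4 genes past 2-fold higher all lay in the matrix arm, 25% of it, where 6.09% of all genes were. Centred on the median gene, 9 of 16 and 11 of 19 were past 2-fold higher, where 14.5% of all genes were. With the length trend removed it was 0 of 16 and 0 of 19, where 5.61% of all genes were. After removal of the length trend 14 of 16 matrix-arm genes, but 10 of 19 membrane-arm genes, stood above the median of all genes. With the median coding length it was 16 of 16 and 19 of 19, so that contrast rests on the length used. The highest ratio in the membrane arm belonged to Ndufa13 (84.7 and 163 FPKM, ratio 0.94), also known as GRIM-19. The lowest belonged to Ndufb6 (132 and 179 FPKM, 0.44). Ndufa7 was the most abundant gene of the complex in both libraries, at 224 and 389 FPKM, and stood 13.2-fold above Ndufs1 at 100 µM and 16.8-fold above it at 300 µM. The order of the 36 levels was nearly the same in both libraries, with a Spearman correlation of 0.96 across genes.

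Complex II, succinate dehydrogenase, which also serves the citric acid cycle, had the lowest median ratio of the 5 on the deposited scale, 0.41 over 4 genes. With the length trend removed its median, 0.13, was the highest of the 5, and with the median coding length, 0.020, it was again the lowest. Sdha, the flavoprotein that oxidises succinate, was at 62.7 and 67.5 FPKM, a ratio of 0.11. Sdhb, its iron-sulfur partner, was at 74.1 and 123 FPKM, a ratio of 0.72. The membrane anchors Sdhc (115 and 151 FPKM) and Sdhd (68.8 and 93.5 FPKM) had ratios of 0.39 and 0.44. Sdha and Sdhb were close at 100 µM and apart at 300 µM. The share of all FPKM taken by complex II was 0.0601% and 0.0628%, a smaller relative difference than for the other 4 complexes, and with the 2 libraries scaled to equal summed FPKM its median ratio was 0.04.

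Complex III, which passes electrons from ubiquinol to cytochrome c, spanned the widest range of ratios, with a standard deviation of 0.35 across its 9 genes against 0.16 in complex IV. Uqcr10, a small accessory subunit, went from 33.0 to 76.5 FPKM (1.19). Uqcrfs1, the Rieske iron-sulfur protein, was at 59.4 and 56.3 FPKM (-0.08) and was the one subunit gene not higher at 300 µM. At the estimated depth the 95% interval of the Uqcrfs1 ratio, for counting error only, ran from -0.18 to 0.03. Cyc1, the cytochrome c1 that accepts its electrons, was at 80.9 and 119 FPKM (0.55). The core proteins Uqcrc1 (101 and 137 FPKM) and Uqcrc2 (60.0 and 79.1 FPKM) had ratios of 0.43 and 0.39. The small subunits Uqcr11, Uqcrh, Uqcrb and Uqcrq lay between 0.65 and 0.81. The Spearman correlation of ratio and length was -0.77 over its 9 genes, against -0.18 in complex I, 0.11 in complex IV and -0.32 in complex V. Among the levels Uqcr10 was the lowest gene at 100 µM and Uqcrfs1 at 300 µM, while Uqcr11 was the highest in both, at 202 and 349.8 FPKM.

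Complex IV, cytochrome c oxidase, was the most uniform. Its 12 compared genes had a median ratio of 0.69, a lowest value of 0.48 (Cox5a, 196 and 273 FPKM) and 1 gene past 2-fold, Cox5b, at 191 and 422 FPKM (1.14). Cox5a and Cox5b were thus nearly level at 100 µM but not at 300 µM. The most abundant gene was Cox6a1, at 611 and 1046 FPKM, and the least abundant of those compared was Cox7a2, at 105 and 167 FPKM. The median level of the complex, 269 and 434 FPKM, was above that of complex I, 85.9 and 143 FPKM, in both libraries. After removal of the length trend its median, -0.33, was the lowest of the 5 complexes, and 5 of 12 stood above the median of all genes. With the median coding length it was 0.16, above complexes II and III, and 12 of 12 stood above the median of all genes.

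Complex IV is also where tissue-specific forms are known, and these cells expressed the general forms. Cox4i1 was at 497 and 877 FPKM, and Cox4i2, known from lung, was listed at 0 and at 0.14 FPKM. Cox6a2, the heart and skeletal muscle partner of Cox6a1, was at 0.32 and 1.17 FPKM. Cox7a1 and Cox8b, likewise of heart and muscle, were listed at 0 in both libraries, beside Cox7a2 (above) and Cox8a, at 580.0 and 957 FPKM. The testis form Cox6b2 was at 0.19 FPKM and listed at 0, beside Cox6b1 at 293 and 476 FPKM. Cox7b2 was at 0.19 and 0.28 FPKM beside Cox7b at 113 and 184 FPKM, and Ndufa4l2, a paralog known from hypoxia, at 0.16 and 0.05 FPKM beside Ndufa4 at 472 and 724 FPKM. Cox7a2l, which is known to join respiratory complexes into supercomplexes, was at 253 and 392 FPKM (0.63). Marker genes of the tissues that use the other forms were near 0 for the most part: Myod1, Myog and Ckm did not exceed 0.04 FPKM, Myh6 and Nppa did not exceed 0.18, and Ucp1 and Fabp4 were listed at 0. Acta1 (3.29 and 10.1 FPKM) and Tnnt2 (7.52 and 1.21 FPKM) were the exceptions among 11 muscle and heart markers.

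**Figure D3:**
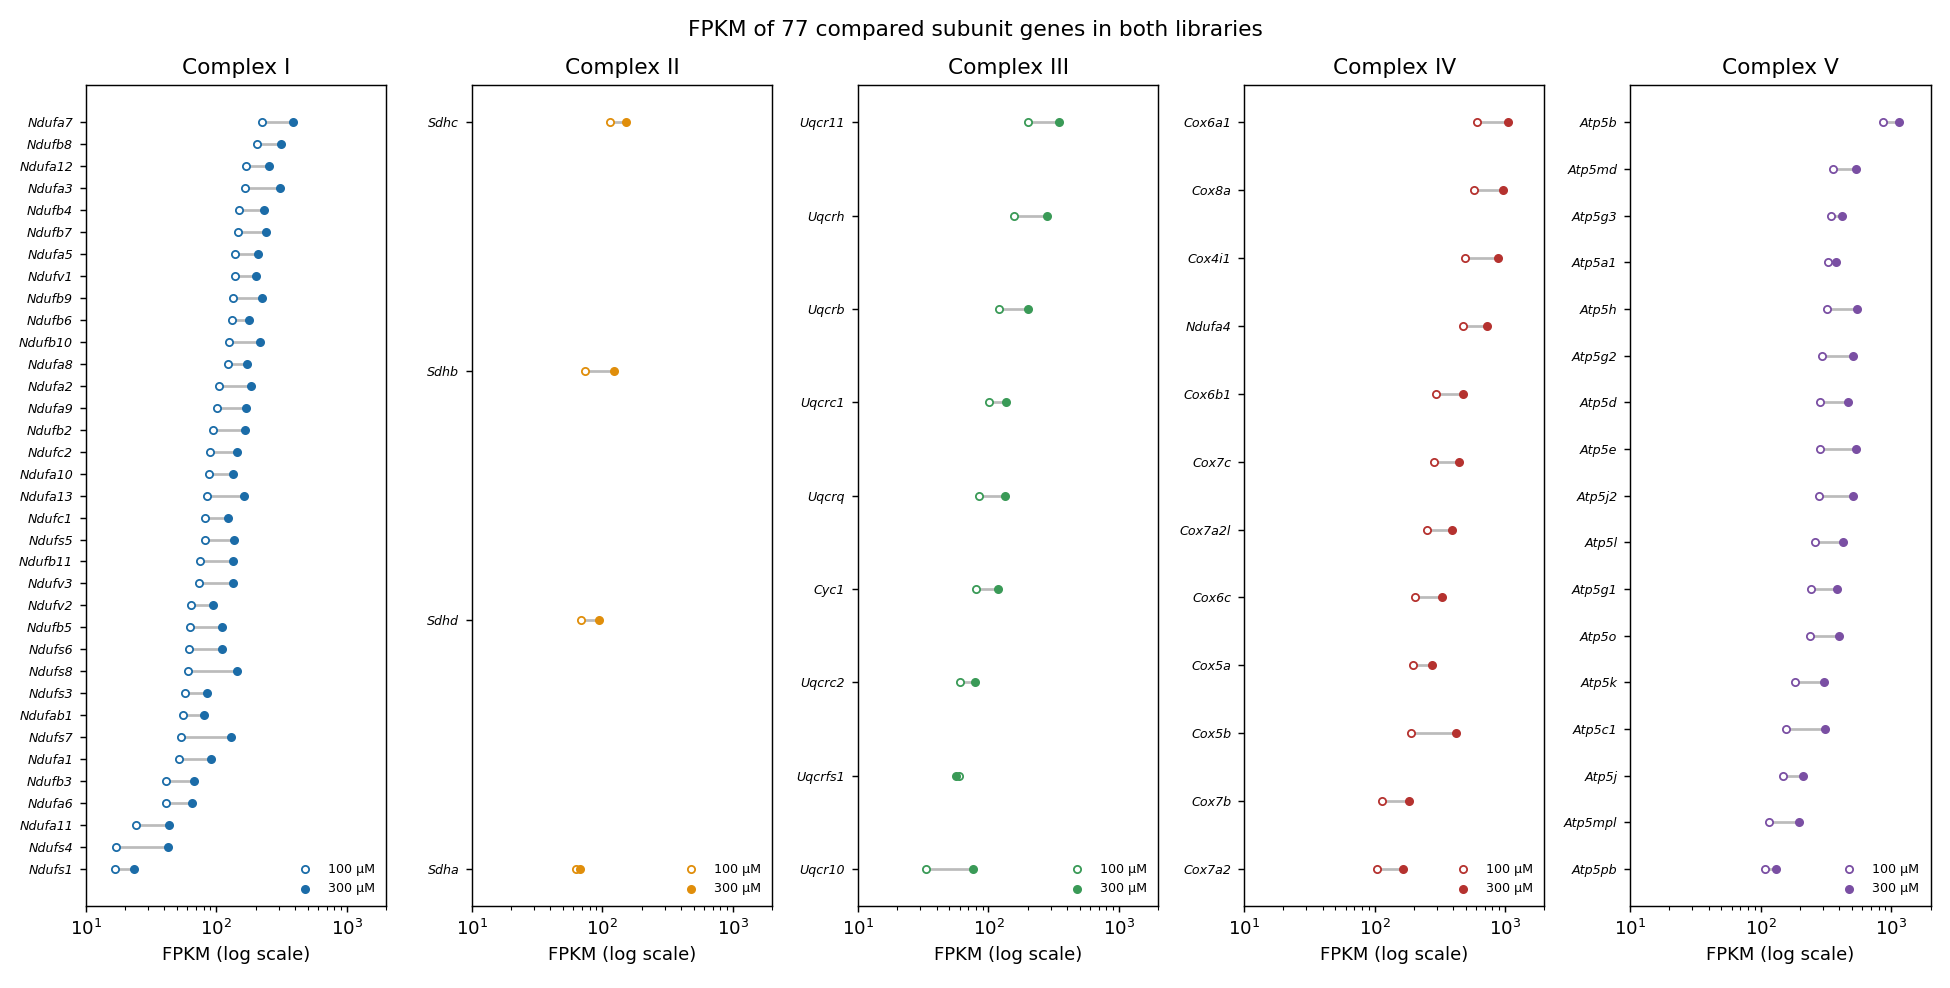
FPKM (log scale, horizontal axis) of 77 of the 78 compared subunit genes at 100 µM (open points) and 300 µM (filled points), 1 library each, 1 panel per complex, with genes ordered by their level at 100 µM. Filled points lie to the right of open points for every gene shown but Uqcrfs1 in complex III, and complexes IV and V lie to the right of complex I.

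Complex V, the ATP synthase, held the most abundant subunit gene, Atp5b, which encodes the catalytic beta subunit, at 862 and 1151 FPKM (0.42). Its 17 genes had a median ratio of 0.72 and none reached 2-fold. Atp5a1, the alpha subunit that alternates with beta in the catalytic head, was at 326 and 376 FPKM (0.20), the lowest ratio of the complex. Atp5c1, the gamma subunit that turns inside that head, was at 156 and 311 FPKM (0.99), the highest. The other members of the central stalk, Atp5d (287 and 468 FPKM, 0.70) and Atp5e (284 and 541 FPKM, 0.93), lay between. Alpha and beta, which are needed in equal number, thus had lower ratios than the 3 stalk subunits. These 2 transcripts were also the longest of the 5 (2471 and 1916 bases against 1166, 931 and 421 bases), and with the length trend removed the values were 0.17 for alpha, 0.10 for beta, 0.34 for gamma, -0.12 for delta and -0.24 for epsilon.

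The peripheral stalk, which holds the head still, had a median of 0.63 over 4 genes, from 0.28 (Atp5pb, 108 and 132 FPKM) to 0.78 (Atp5h). The small membrane subunits had a median of 0.75 over 5 genes. The c ring is encoded by 3 genes whose mature products are identical. Atp5g1 was at 244 and 382 FPKM (0.64), Atp5g2 at 296 and 510.2 FPKM (0.78) and Atp5g3 at 349 and 417 FPKM (0.26). Atp5g3 held the largest share of their sum at 100 µM, 39.2%, and Atp5g2 the largest at 300 µM, 39.0%. However, 87.4% of the 50-base words of Atp5g2 transcripts also occurred in transcripts of other genes, chiefly a gene-like copy, so its level depends on how reads were divided. Such sharing reached at least 20% in 20 of the 78 subunits, whose median ratio was 0.70, and it was lower in 58, whose median was also 0.70.

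Counting error was small beside these ratios. At the estimated depth the subunit gene with the fewest reads at 100 µM, Ndufa11, had about 244, and the median was about 2172. The 95% interval of the ratio, for counting error only, left out 0 in 77 of 78 genes. This says how well each library was counted and nothing of how cultures vary.

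The Ndufaf genes, whose products build complex I and then leave it, had ratios on both sides of 0. Of the 8, 2 (25%) passed 2-fold upward, where 6.09% of all genes did, and 2 (25%) passed it downward, near the 29.8% of all genes. Ndufaf3 went from 3.73 to 11.2 FPKM (1.37) and Ndufaf2 from 19.8 to 48.9 FPKM (1.26). Ndufaf1, part of the machinery that assembles the membrane arm, went from 22.9 to 5.71 FPKM (-1.83), and Ndufaf4, a partner of NDUFAF3, from 15.1 to 3.79 FPKM (-1.75). Ndufaf7, a methyltransferase, was at 14.9 and 7.23 FPKM (-0.95). Ndufaf5 (4.63 and 8.99 FPKM, 0.83), Ndufaf8 (36.5 and 53.2 FPKM, 0.53) and Ndufaf6 (7.27 and 9.10 FPKM, 0.29) were higher by less than 2-fold. The partners Ndufaf3 and Ndufaf4 thus stood on opposite sides. The median of the 8 was 0.41, but over the members with a mean of at least 10 FPKM it was -0.21, so its sign changed with that filter. Ndufaf1 kept its low value with the length trend removed, at -2.31.

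Assembly factors of all complexes, from a list of 62 that had 54 others beside the 8, also lay on both sides of 0. Of the 62, 6 passed 2-fold upward and 13 downward (background 6.09% and 29.8%), with a median of 0.17. In complex I assembly Nubpl, which delivers iron-sulfur clusters, went from 2.08 to 9.86 FPKM, and Tmem186 from 10.1 to 0.81 FPKM. The complex II factor Sdhaf1, needed for the iron-sulfur subunit, went from 13.8 to 3.57 FPKM. Bcs1l, which inserts the Rieske protein UQCRFS1 into complex III, went from 6.68 to 14.7 FPKM, whereas Ttc19, which acts on the Rieske protein after insertion, went from 8.75 to 3.86 FPKM.

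Complex IV had the longest list of assembly factors. Of the 28, 7 were past 2-fold on the lower side and 2 on the higher side, with a median of 0.11. These shares, 25% and 7.14%, were near the 29.8% and 6.09% of all genes. The copper chaperone Sco2 went from 16.8 to 1.49 FPKM (-2.84), and Cox11, which supplies copper to another site, from 9.14 to 1.36 FPKM (-2.10). Coa8 went from 21.7 to 71.4 FPKM (1.68) and Cmc1 from 5.20 to 12.6 FPKM (1.14). Of 5 complex V factors 1, Tmem70, was at least 2-fold lower, at 37.1 and 16.8 FPKM.

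**Figure D4:**
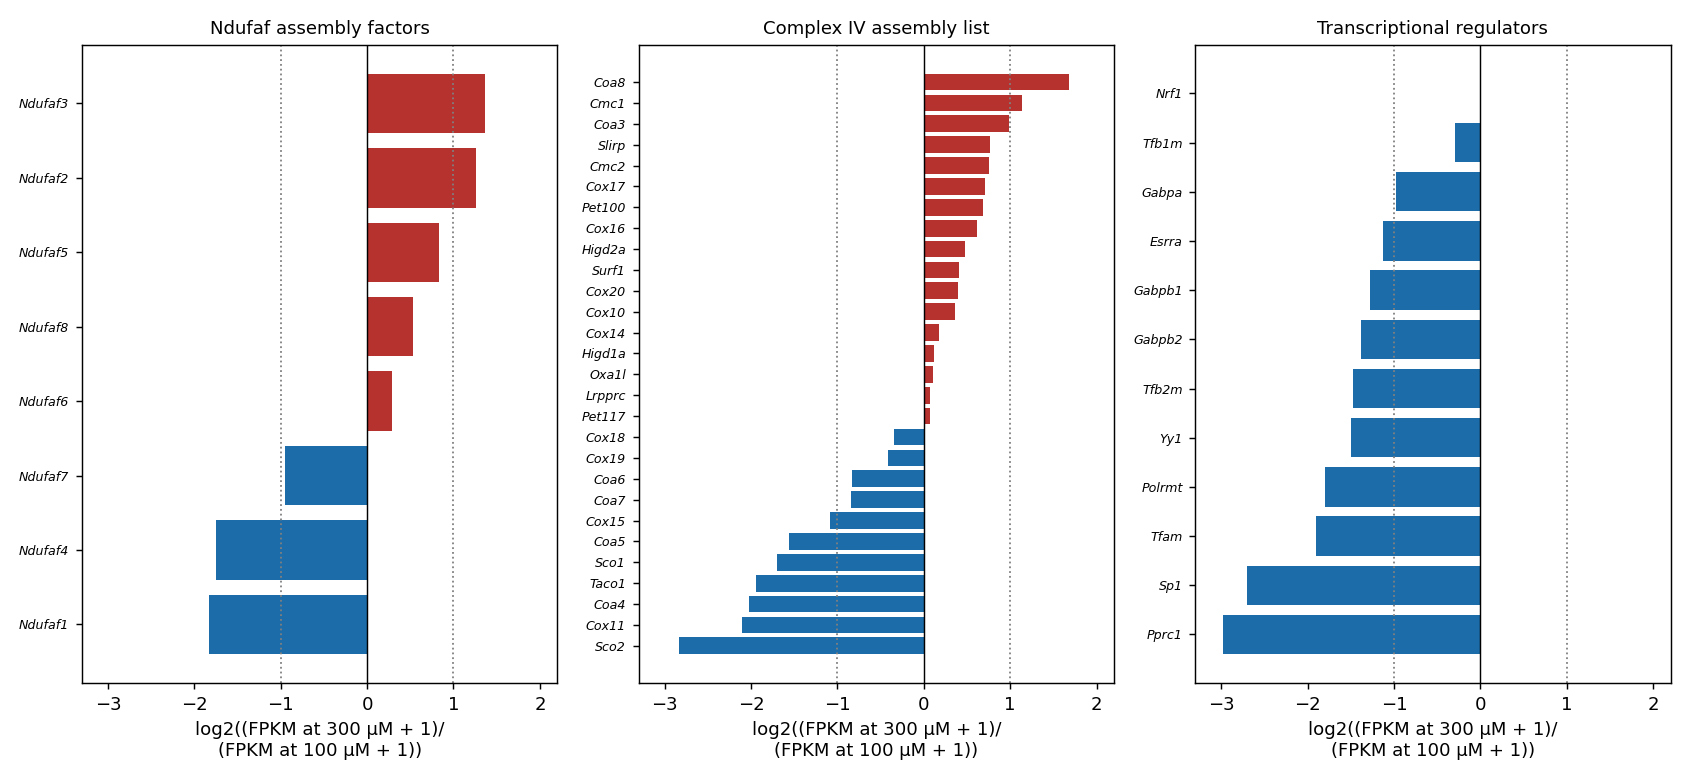
Ratio between doses (horizontal axis, log2 of FPKM + 1 at 300 µM over FPKM + 1 at 100 µM) of each of the 8 Ndufaf genes, the 28 listed complex IV assembly factors and the 12 compared transcriptional regulators, as bars from 0 in red where higher and blue where lower at 300 µM, with 2-fold dotted. Bars point both ways for the Ndufaf genes (-1.83 to 1.37) and the complex IV factors (-2.84 to 1.68), and to the left or to 0 for the regulators (-2.97 to 0.00).

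The mobile carriers between the complexes, cytochrome c and the coenzyme Q pathway, gave few genes past 2-fold. Cycs, the somatic cytochrome c, was at 99.6 and 111 FPKM (0.16). Of the 14 genes compared, Coq7 was at least 2-fold higher (9.01 and 19.3 FPKM), and Coq10b (43.0 and 9.30 FPKM) and Pdss1 (11.7 and 4.40 FPKM) at least 2-fold lower. In the citric acid cycle, which supplies NADH and succinate, 2 of 13 genes were at least 2-fold higher, Suclg2 (10.9 and 28.2 FPKM) and Idh3g (55.0 and 113 FPKM), and 0 were at least 2-fold lower, with a median of 0.39. Of all genes 6.09% were past 2-fold on the higher side and 29.8% on the lower, so the carriers' 1 and 2 of 14 were 7.14% and 14.3%. Genes of the mitochondrial ribosome had a median of 0.28 over 78 genes. The cytosolic ribosomal proteins, also short, had a median of 0.86 over 77 genes and went from 25.4% to 35.6% of all FPKM. A share of summed FPKM is not a share of reads, because FPKM divides by transcript length.

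On the deposited scale the known transcriptional regulators of respiratory genes lay on the opposite side of 0 from the subunits. Of 14 listed, 12 could be compared, with a median ratio of -1.43. Past 2-fold were 9 on the lower side, where 29.8% of all genes were, and 0 on the higher side. The regulators' transcripts are long, with a median of 3961 bases. With the length trend removed 7 of 12 were past 2-fold on the lower side, where 26.1% of all genes were. Their median was then -1.25 and that of the subunits -0.19, also below 0. With the median coding length the medians were -1.275 and 0.18. Pprc1, a coactivator of the PGC-1 family, went from 36.6 to 3.78 FPKM (-2.97), and Sp1, which binds GC boxes, from 12.4 to 1.06 FPKM (-2.70). The 2 other members of the family, Ppargc1a and Ppargc1b, were listed at 0 in both libraries and at 0.01 and 0.03 FPKM. Tfam, which packages and transcribes mitochondrial DNA, went from 15.8 to 3.49 FPKM (-1.90), and Polrmt, the mitochondrial RNA polymerase, from 15.8 to 3.83 FPKM (-1.80). Of the mitochondrial transcription factors B, Tfb2m went from 29.7 to 10.1 FPKM (-1.47), and Tfb1m was at 3.35 and 2.56 FPKM (-0.29).

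Among the DNA-binding regulators, Yy1 went from 39.2 to 13.2 FPKM (-1.50) and Esrra, an ERR receptor, from 27.6 to 12.0 FPKM (-1.13). The ETS factor Gabpa was at 11.6 and 5.39 FPKM (-0.98), and its partners Gabpb1 (19.4 and 7.44 FPKM, -1.28) and Gabpb2 (3.52 and 0.74 FPKM, -1.38) were also lower. Nrf1 was at 6.35 FPKM in both libraries (0.00). On the deposited scale the regulators' transcripts were thus lower or equal at 300 µM in 12 of 12, while the subunits' transcripts were higher in 77 of 78. Centred on the median gene, 2 of 12 regulators and 78 of 78 subunits were above 0. With equal summed FPKM the subunit median was 0.33 and the regulator median -1.71, and some subunits, such as Sdha (-0.26), fell below 0.

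Letters known for these factors were searched on both strands of each 300-base RefSeq window, and a match is a description of the letters alone. The NRF1 letters occurred in 10 of 65 subunit windows (15.4%), against 6.14% of 8238 windows of compared genes and 2.81% of all 27025 windows. The YY1 letters occurred in 9 of 65 (13.8%), against 5.34% of compared genes and 2.87% of all windows, and the ERR letters TCAAGGTCA in 2 of 65 (3.08%), against 0.243% and 0.407%. The YY1 letters AAGATGGC include ATG, the letters of a start codon. Whether their matches lie at start codons was not tested. The ETS letters CCGGAAG occurred in 16 of 65 (24.6%), against 20.8% and 9.14%, and CCAAT in 27 of 65 (41.5%), against 39.8% and 38.0%. The GC box GGGCGG occurred in 27 of 65 (41.5%), against 67.8% and 35.9%, and the E-box CACGTG in 6 of 65 (9.23%), against 10.8% and 7.24%.

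The matches lay at different places. Places are counted from the RefSeq start, and 57 of the 65 windows also held the start of a GENCODE transcript of the gene. The NRF1 letters lay before the start in 9 of the 10 subunit genes, as in 440 of 506 compared genes that hold them, and in Atp5g2, Atp5k and Ndufa11 (printed above) they began 42, 50 and 60 bases before it. The YY1 letters lay after the start in 8 of the 9, and after it in 260 of 440 compared genes that hold them. They began 36 bases into Ndufs4 and 25 bases into Ndufs7, the 2 subunit genes with the highest ratios. The ninth, Atp5pb, had them across the RefSeq start on the other strand and a ratio of 0.28. Its window held no GENCODE start, so that place is uncertain.

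The letters did not separate the subunit genes by ratio. The 30 genes with NRF1, ETS or YY1 letters had a median ratio of 0.72, and the 35 without had 0.66, with ranges that overlapped from 0.28 to 1.19. The medians were 0.74 for the 10 genes with NRF1 letters and 0.70 for the 55 without, and 0.82 for the 9 with YY1 letters and 0.70 for the 56 without. The 27 genes with a GC box had a median of 0.61 and the 38 without 0.75. Of the 6 genes at least 2-fold higher, 5 had a window. Ndufs4 and Ndufs7 held YY1 letters, Ndufs8 held ETS letters after its start and CCAAT 3 times in the stretch printed above, Uqcr10 held CCAAT, and Cox5b held none of the 7 motifs.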

How the data were processed

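RNA of MC3T3-E1 cells was sequenced in 1 library at 100 µM and 1 at 300 µM formaldehyde. The authors deposited gene-level FPKM values for 17215 genes per library, per the file headers. The submitters' processing notes name Bowtie2 and RSEM with no version; their genome build and gene annotation were not given in the sources used here. RSEM divides reads among isoforms and similar genes, so values of genes with near-identical copies are uncertain. Symbols came from RefSeq (17179 gene numbers) and GENCODE release M21 (6), and 30 rows had no symbol. Values of 1 member are not reported here. The members and lists were chosen with earlier results of these data known.

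A pseudocount of 1 FPKM and a minimum mean of 1 FPKM were used, and 2-fold was the size named. Values are given for members at or beyond 2-fold, for the highest and lowest ratio and level of each complex, for core, catalytic and redox subunits, paralogs and Ndufaf genes, for all regulators, and for up to 2 genes per direction of the other lists. Groups are described by counts and medians beside all genes. Length trends were removed by lowess over 20% of genes (statsmodels 0.14.6) and tested on simulated data. The simulated trend followed the same length that was removed, so that test cannot show which transcript length to use. Other pseudocounts, filters, scalings, thresholds and member definitions were tried. Python 3.11.15, numpy 2.4.6, pandas 2.3.3 and scipy 1.17.1 were used.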

Additional observations from a re-analysis of the deposited data

How the results depend on the processing

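With 1 library per dose and no replicate, none of these alternatives measures how cultures vary, and counting depth adds little error for subunits beside it. Of 121 values of the 9 results under the alternatives, 70 kept direction and size, 38 moved and 13 changed sign. Pseudocounts of 0.1 and 5 FPKM, other member definitions and leaving out members that share at least 20% of their 50-base words (chosen after seeing the data) moved none of the 9. Medians below are for all subunits, complexes I to V and the Ndufaf genes in turn, followed by the count at least 2-fold higher and, in parentheses, the share of all genes. Centring on the median gene gave 0.9995, 1.03, 0.71, 0.95, 0.99, 1.02 and 0.71, with 39 genes (14.5% of all genes). Scaling to equal summed FPKM gave 0.33, 0.36, 0.042, 0.28, 0.32, 0.34 and 0.058, with 0 genes (2.16%). An unweighted TMM factor gave 1.10, 1.13, 0.81, 1.05, 1.09, 1.11 and 0.79, with 54 genes (17.1%). Removing the length trend gave -0.19, -0.21, 0.13, 0.027, -0.33, -0.16 and -0.41, with 1 gene (5.61%), and removing length and GC trends gave -0.23, -0.26, 0.11, -0.065, -0.34, -0.24 and -0.45, with 1 gene (5.56%). The length trend with the median coding length, also chosen after seeing the data, gave 0.18, 0.21, 0.020, 0.073, 0.16, 0.25 and -0.091, with 0 genes (5.35%). These length versions kept the median of all genes at -0.30, so a changed sign there is one against 0. The median of all subunits stayed above -0.30 in each. With the representative length, those of complex IV and the Ndufaf genes fell below it. A threshold of 1.5-fold gave 55 genes (18.8%) and one of 3-fold 0 (1.22%). A minimum mean of 10 FPKM turned the Ndufaf median to -0.21. The count past the threshold on the lower side was 0 under every alternative. Of all genes, 16.1% to 38.0% were lower where the threshold was 2-fold, 41.6% at 1.5-fold and 16.3% at 3-fold. Apart from the scalings' own shifts, the cause of these changes was not tested.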
